A study of Mus musculus with 4 samples.

Results

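Polycomb, histone methylation and BAF genes were examined in mouse cells on day 9 of reprogramming with wild-type or V118M SOX17. The set comprised 48 genes, taken by name from a table of 22369 genes. It holds subunits of the Polycomb repressive complexes PRC1 and PRC2, enzymes that write or remove methyl groups on histone H3, partners of H3K9 methylation, and subunits of the BAF (SWI/SNF) chromatin remodeler. All 48 were present in the table and all 48 passed the filter on low values.

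Both groups were cultures of OG2MEF, mouse embryonic fibroblasts with a green fluorescent reporter driven by the Oct4 locus. Total RNA came from 2 libraries labelled SOX17 WT and 2 labelled SOX17-V118M, all from day 9. Per the labels' protocols, every culture was infected on 2 occasions with retroviruses of the pMX type, a design that placed Sox2 and Klf4 with OCT4, SOX17, SOX17-V118M or GFP, and was then kept in embryonic stem cell medium containing LIF and vitamin C. The labels do not spell out the full mix for each library, and they do not say whether replicates were separate infections, so p-values measure only the spread between these libraries. Each library is a bulk culture, in which fewer cells of a type and less RNA per cell cannot be told apart.

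As background, PRC2 methylates histone H3 at lysine 27 and PRC1 ubiquitinates histone H2A, and both keep developmental genes silent in cells that do not use them. Methylation of H3 at lysine 9 packs somatic heterochromatin, while methylation at lysine 4 marks active promoters. BAF complexes use ATP to move nucleosomes and exchange subunits as cells change state. These systems are known to set how easily a fibroblast can be turned into a pluripotent cell.

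Values are whole-number scores that the authors normalized to nearly the same distribution in every library, and a gene's value is given below in the order wild-type replicates 1 and 2, then V118M replicates 1 and 2. A log2 fold change is the V118M mean less the wild-type mean after a log2(value + 1) transform. Of the 4 libraries, V118M replicate 2 was the least like the rest, with correlations of 0.954 to 0.964 to each of them, against 0.986 to 0.990 among the other 3 (over 12661 genes whose log2 values averaged 5 or more). For some of the described fold changes the value without it is given too. Where that value is not given, the fold change may still have moved. The fit covered 19547 genes. At an adjusted p under 0.05 (limma, Benjamini-Hochberg over all genes tested), 0 of the 48 members passed, against 0% of all genes tested, and the lowest adjusted p of a member was 0.951. At an unadjusted p under 0.05, 2 members (4.17%) were found, both higher in V118M, and the share over all genes was 4.01%, with 2.31% higher and 1.70% lower. Leaving out 1 library changed that count to 0 (wild-type replicate 1), 1 (wild-type replicate 2), 12 (V118M replicate 1) or 8 (V118M replicate 2). The shares of members were then 0%, 2.08%, 25.0% and 16.7%, beside 1.16%, 1.42%, 26.8% and 12.0% of all genes fitted, so the counts varied with those of the whole table. No member differed by 2-fold, 40 had an absolute log2 fold change under 0.3, and the median standard error of a member was 0.19. The median log2 fold change of the members was 0.01, beside 0 for all genes tested. It was 0.14 when V118M replicate 2 was left out and -0.06 when V118M replicate 1 was.

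Chaf1a and Smarcd3 were the members with an unadjusted p under 0.05. Chaf1a encodes the large subunit of chromatin assembly factor 1, which deposits histones behind the replication fork and is known as a barrier to reprogramming. Chaf1a (ENSMUSG00000002835, chromosome 17, 56040439 to 56072289, plus strand) was at 320 and 305 in wild type and at 432 and 426 in V118M. Both V118M libraries stood above both wild-type libraries by a margin larger than the difference within either pair. This is a log2 fold change of 0.46 (standard error 0.15, limma adjusted p = 0.951), and it was between 0.42 and 0.49 when any 1 library was left out. Smarcd3 encodes BAF60C, a BAF subunit best known in heart and muscle, where it links the remodeler to lineage transcription factors. Smarcd3 (ENSMUSG00000028949, chromosome 5, 24590818 to 24624411, minus strand) was at 42 and 73 in wild type and at 108 and 94 in V118M. The groups did not overlap, but the wild-type libraries differed from each other by more than the V118M libraries did. This is a log2 fold change of 0.85 (standard error 0.33, limma adjusted p = 0.951). It lay between 0.46 without wild-type replicate 1 and 1.24 without wild-type replicate 2.

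Both genes share exon sequence with a neighbour on the opposite strand. Use of strand in the counting was not given in the sources used here. An exon of Ubxn6 overlaps an exon of Chaf1a by 2542 bases, and Ubxn6 was at 1000, 1106, 1062 and 1472. An exon of Chpf2 overlaps an exon of Smarcd3 by 2050 bases, and Chpf2 was at 1018, 841, 898 and 962. The order of the libraries differed between each gene and its neighbour, since Ubxn6 was high in V118M replicate 2 only and Chpf2 was highest in wild-type replicate 1. The part of either neighbour in its partner's value was not tested. Over the whole set, 22 members share exon sequence with another annotated gene, 19 of them on the opposite strand.

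Promoter sequences were compared because several members are genes of dividing cells, whose promoters often bind E2F factors and the CCAAT-binding factor NF-Y. RefSeq windows (GRCm38.p6) from 250 bases before to 50 after a gene's start were found for 40 members, and 30 of these starts lay within 100 bases of the start given in the table. Windows were searched on both strands for 4 E2F words (TTTCCCGC, TTTGGCGC, TTTGCCGC and TTTCGCGC), and for CCAAT. No E2F word contains CCAAT or is contained in another motif searched, and the matches shown do not overlap. An E2F word was present in 5 of 40 member windows (12.5%), those of Ezh2, Suz12, Phf19, Arid1a and Smarcd1, and in 2.26% of all 32851 windows. The RefSeq starts of the Ezh2 and Arid1a windows lay 54295 and 374 bases from the starts given in the table. CCAAT was present in 13 of 40 (32.5%), against 37.4% of all windows. The bases before the start of Ezh1 and Ezh2, the pair of PRC2 enzymes with opposite signs of fold change, and of Chaf1a and Suz12 are shown 5′ to 3′ on the gene's strand, with E2F words and CCAAT (or its complement ATTGG) in capitals. For Ezh2 only the 30 bases around its E2F word are shown, since the word lies just after the RefSeq start.
Ezh1, chr11:101226464-101226713, minus strand: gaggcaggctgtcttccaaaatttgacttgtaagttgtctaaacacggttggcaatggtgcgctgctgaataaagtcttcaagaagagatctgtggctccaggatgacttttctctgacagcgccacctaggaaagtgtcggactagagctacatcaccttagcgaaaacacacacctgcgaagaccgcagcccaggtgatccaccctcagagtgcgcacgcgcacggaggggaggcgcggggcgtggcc
Ezh2, chr6:47595018-47595047, minus strand: atggcgATTGGgttgctgcgTTTGGCGCtc
Chaf1a, chr17:56040166-56040415, plus strand: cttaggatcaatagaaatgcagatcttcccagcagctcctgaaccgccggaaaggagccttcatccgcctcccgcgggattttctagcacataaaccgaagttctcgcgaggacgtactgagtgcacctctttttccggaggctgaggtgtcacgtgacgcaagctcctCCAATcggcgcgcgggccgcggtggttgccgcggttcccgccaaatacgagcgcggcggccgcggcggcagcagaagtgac
Suz12, chr11:79992856-79993105, plus strand: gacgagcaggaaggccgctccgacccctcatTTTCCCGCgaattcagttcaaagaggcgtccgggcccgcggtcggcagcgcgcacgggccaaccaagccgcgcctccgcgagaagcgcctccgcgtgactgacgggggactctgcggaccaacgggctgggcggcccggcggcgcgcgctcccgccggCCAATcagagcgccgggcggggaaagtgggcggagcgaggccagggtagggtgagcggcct
The Ezh1 stretch held no E2F word and no CCAAT, the Chaf1a stretch held 1 CCAAT, and the Suz12 and Ezh2 stretches held both motifs. Only exact words were searched, so E2F sites spelled otherwise were not looked for. The Chaf1a stretch held ccgccaaa, which on the opposite strand differs from the word TTTGGCGC only in its last letter. The series' design text names a compressed SOX and OCT element, CATTGTATGCAAAT, and this word was in 0 of the 40 member windows and in 0 of all windows. Its SOX part, CATTGT, was in 4 member windows (10.0%, against 12.6% of all windows), those of Bmi1, Cbx6, Dot1l and Kdm2b. Its OCT part, ATGCAAAT, was in 0 of 40 and in 1.74% of all. These matches are descriptions of letters in a window.

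The groups did not overlap in 19 of the 48 members (39.6%), against 28.0% of all genes tested. Both V118M values were above both wild-type values in 14 members (29.2%, against 13.2% of all genes) and below them in 5 (10.4%, against 14.8%). By mean, 27 members were higher in V118M and 21 were lower, where 50.0% of all genes were higher and 48.9% lower. The plot of the members by library shows all of these values by role.

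**Figure D1:**
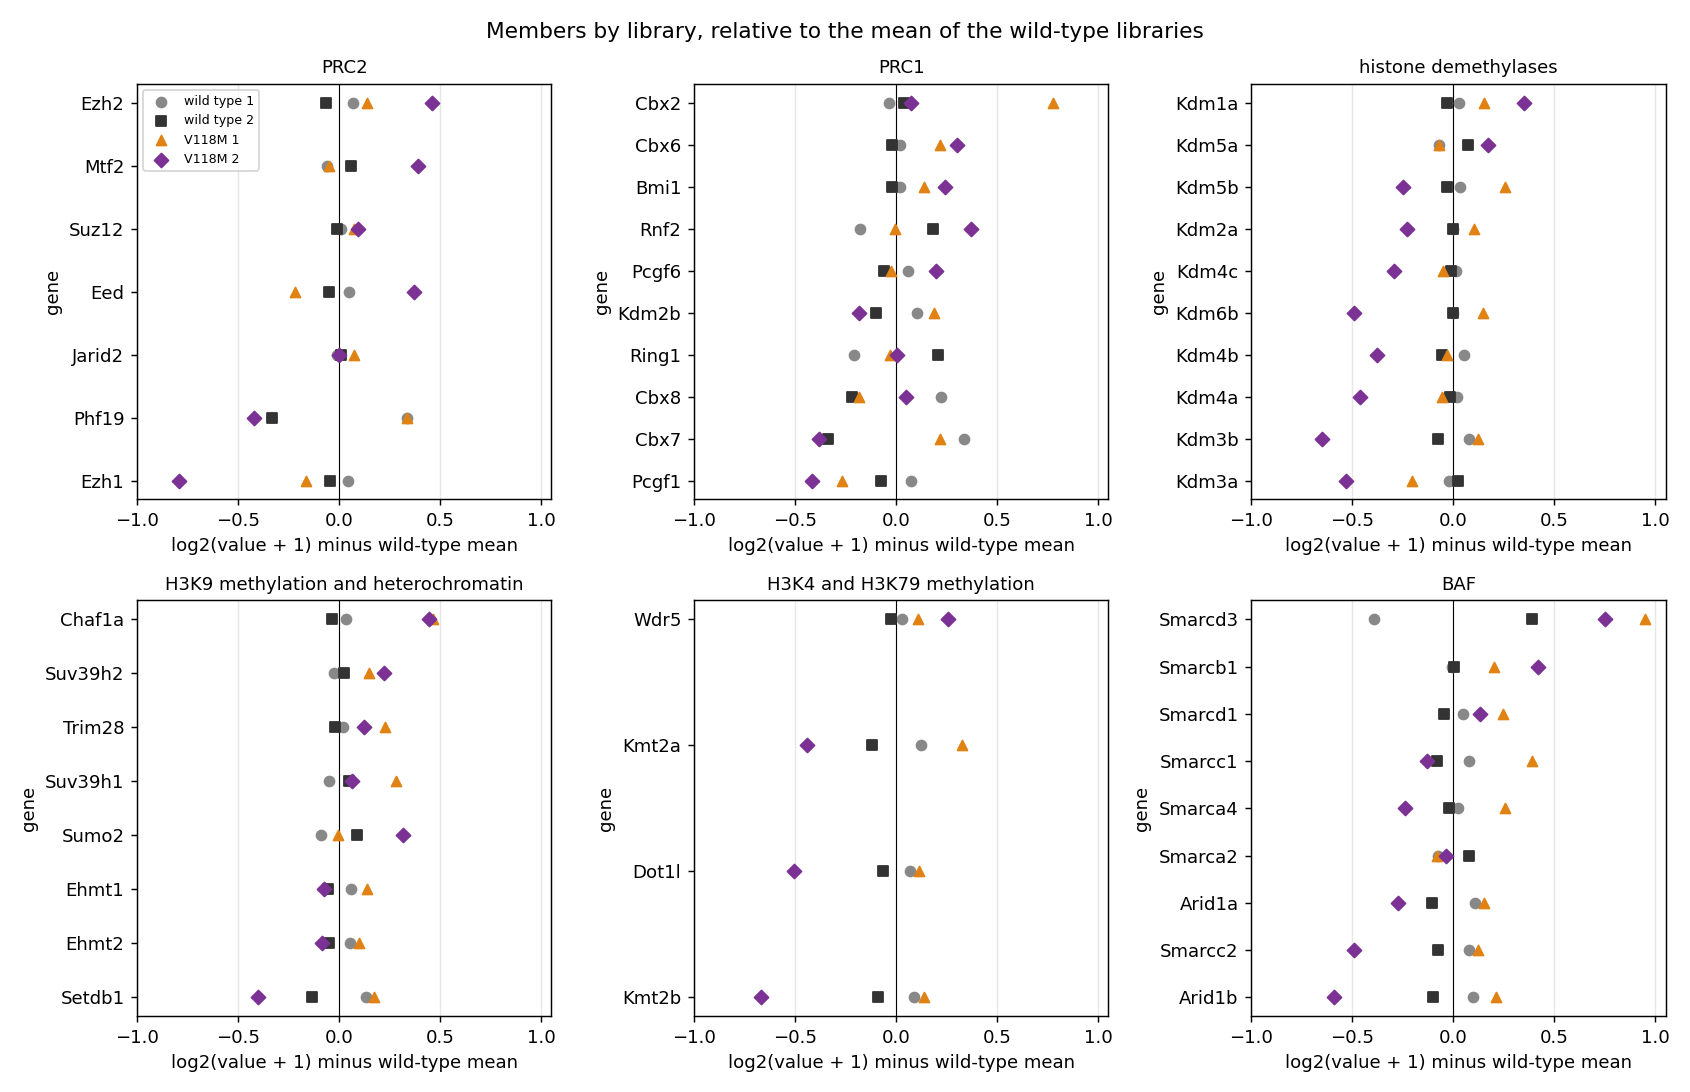
Each panel holds the members of 1 role, and each point is 1 library, as log2(value + 1) minus the mean of the wild-type libraries (x axis, log2 units). V118M replicate 2 lies far to the left for most demethylases and for Kmt2a, Kmt2b and Dot1l, where V118M replicate 1 does not, while both V118M libraries lie to the right for Chaf1a, Smarcd3, Smarcb1 and Cbx6.

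In PRC2, the alternative catalytic subunits had fold changes of opposite sign, and neither passed the test. Ezh2, the main H3K27 methyltransferase of dividing cells, was at 599 and 546 in wild type and at 630 and 788 in V118M (means 572.5 ± 37.5 and 709 ± 112, SD, n = 2 each). Ezh1, its less active relative that prevails in resting cells, was at 816 and 768 in wild type and at 706 and 456 in V118M (means 792 ± 33.9 and 581 ± 177, SD, n = 2 each). For both genes the groups did not overlap, and V118M replicate 2 was farther from the wild-type libraries than V118M replicate 1. The log2 fold change of Ezh2 was 0.30 (standard error 0.18), and without V118M replicate 2 it was 0.14. The log2 fold change of Ezh1 was -0.48 (standard error 0.24), and without V118M replicate 2 it was -0.16. The limma adjusted p was 0.951 for each.

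The scaffold Suz12 was the most even of the core subunits, at 1338 and 1322 against 1400 and 1418, which did not overlap but amounted to a log2 fold change of 0.08. Eed, which reads the H3K27 mark, was at 554 and 518 against 460 and 694, so the V118M libraries lay on either side of wild type. Of the accessory subunits that guide PRC2 to its targets, Mtf2 was at 758 and 825 against 764 and 1038, and Jarid2 at 593 and 602 against 628 and 598. Only V118M replicate 2 stood out for Mtf2, and Jarid2 was level. Phf19, a relative of Mtf2, was low at 26, 16, 26 and 15, a pattern that followed the replicate number and not the group. In all, 5 of 7 PRC2 members had a higher mean in V118M, where 50.0% of all genes did. The groups did not overlap in 3 of 7 (42.9%, against 28.0% of all genes).

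In PRC1, Rnf2 and Ring1 encode the ubiquitin ligases. Rnf2 was at 768 and 987 against 867 and 1124, and Ring1 at 192 and 256 against 217 and 222. For both genes the difference between the wild-type libraries was at least as large as that between the group means. Bmi1, a ring finger partner of these ligases that holds back senescence, was at 418 and 406 against 454 and 487. Its groups did not overlap (log2 fold change 0.19, standard error 0.15).

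The chromobox proteins bind the H3K27 mark and give canonical PRC1 its targets. Cbx6 was at 1552 and 1512 in wild type and at 1782 and 1890 in V118M, both above wild type (log2 fold change 0.26, adjusted p = 0.951 with limma, standard error 0.14). The other 3 chromobox members were at low values. Cbx2 was at 36 and 38 against 64 and 39, so only V118M replicate 1 stood out, and its log2 fold change of 0.42 was 0.07 without that library. Cbx7, the chromobox protein typical of embryonic stem cells, was at 50 and 31 against 46 and 30, and Cbx8 at 52 and 38 against 39 and 46. Neither differed by more than its wild-type libraries did.

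The remaining PRC1 members belong to variant complexes, which lack the Polycomb chromobox proteins. Pcgf1, which works with Kdm2b, was at 51 and 46 against 40 and 36, the only PRC1 member whose V118M values were both below wild type (log2 fold change -0.34, standard error 0.27). Kdm2b, which recruits this complex to unmethylated CpG islands, was at 590 and 512 against 626 and 484. Pcgf6, which marks another variant complex known for silencing germline genes, was at 261 and 240 against 246 and 287. Of the 10 PRC1 members, 6 had a higher mean in V118M, where 50.0% of all genes did. The groups did not overlap in 4 (40.0%, against 28.0% of all genes).

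Histone demethylases had a lower mean in V118M in 7 of 10 members, where 48.9% of all genes did, and their median log2 fold change was -0.17. The low values lay mostly in V118M replicate 2. In that library 8 of the 10 were below both wild-type values, and in V118M replicate 1 it was 3, with 5 above. Leaving out V118M replicate 2 gave a median of 0.03, and leaving out V118M replicate 1 gave -0.34. Kdm3a, an H3K9 demethylase, was at 2586 and 2663 against 2274 and 1818, below wild type in both V118M libraries (log2 fold change -0.37, adjusted p = 0.951 with limma, standard error 0.17). It was -0.21 without V118M replicate 2. Its relative Kdm3b was at 1734 and 1556 against 1786 and 1048, so that only V118M replicate 2 was low.

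The Kdm4 enzymes remove methyl groups from H3K9 and H3K36. Kdm4a was at 1362 and 1328 against 1292 and 977, Kdm4b at 652 and 604 against 614 and 482, and Kdm4c at 704 and 692 against 673 and 570. Both V118M values were below wild type for Kdm4a and Kdm4c, and V118M replicate 1 was within or close to the wild-type values for all 3 genes. Without V118M replicate 2 the log2 fold changes of Kdm4a, Kdm4b and Kdm4c were -0.06, -0.03 and -0.05. Kdm1a (LSD1), which removes mono- and dimethylation from H3K4, was the only demethylase with both V118M values above wild type, at 1107 and 1062 against 1203 and 1384 (log2 fold change 0.25, standard error 0.15, and 0.15 without V118M replicate 2). The H3K4 demethylase Kdm5a was at 2248 and 2478 against 2248 and 2663, and Kdm5b at 1326 and 1270 against 1547 and 1090. The highest and the lowest value of Kdm5b were thus both in V118M libraries. Kdm2a, which acts on H3K36, was at 3054 and 3054 against 3273 and 2602, and the H3K27 demethylase Kdm6b at 1346 and 1346 against 1489 and 956. Both were split in the same way, with V118M replicate 1 above and V118M replicate 2 below the tied wild-type values.

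Of the 8 members tied to H3K9 methylation, 7 (87.5%, against 50.0% of all genes) had a higher mean in V118M (median log2 fold change 0.16). The median was 0.09 without V118M replicate 1. Sumo2 was among these 7 at 0.15, but changed sign with a length and GC trend removed. It was then -0.013 (table's transcript) or -0.10 (longest coding transcript). V118M lay wholly above wild type in 4 of them (50.0%, against 13.2% of all genes) and wholly below in 0 (against 14.8%). Chaf1a is described above. Suv39h1 and Suv39h2, which trimethylate H3K9 in constitutive heterochromatin, were at 405 and 434 against 509 and 438, and at 164 and 170 against 185 and 195. Both were above wild type in both V118M libraries, by a margin of 4 in the case of Suv39h1 in V118M replicate 2. The log2 fold change of Suv39h1 was 0.17, or 0.06 without V118M replicate 1 and 0.28 without V118M replicate 2. Trim28, the corepressor that brings Setdb1 to retroviral elements and is itself known for silencing retroviral vectors in pluripotent cells, was at 4192 and 4076 against 4843 and 4498 (log2 fold change 0.18, standard error 0.15). Setdb1, the H3K9 methyltransferase of that pathway, was at 844 and 702 against 868 and 582, and so did not follow Trim28. Sumo2, a modifier that the same pathway uses and whose reads could be split with processed copies, was at 2578 and 2912 against 2725 and 3406. Ehmt1 and Ehmt2 (GLP and G9a), which together dimethylate H3K9, were at 1024 and 946 against 1082 and 934, and at 2277 and 2118 against 2348 and 2072. Each was level between the groups, with log2 fold changes of 0.03 and 0.01.

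Of the 4 genes for H3K4 and H3K79 methylation, 3 had a lower mean in V118M, where 48.9% of all genes did. All 4 were above wild type in V118M replicate 1, where 28.1% of all genes were. Wdr5, a core subunit shared by the H3K4 methyltransferase complexes, was at 1101 and 1060 against 1163 and 1292 and was the only one of the 4 whose groups did not overlap (log2 fold change 0.18, standard error 0.15, and 0.11 without V118M replicate 2). The methyltransferase Kmt2a was at 2382 and 2015 against 2746 and 1614, and Kmt2b at 1370 and 1210 against 1416 and 809. Dot1l, the H3K79 methyltransferase and another known barrier to reprogramming, was at 2002 and 1826 against 2069 and 1348. In these 3 genes V118M replicate 1 was the highest and V118M replicate 2 the lowest library. Their log2 fold changes of -0.06, -0.27 and -0.20 became 0.33, 0.14 and 0.11 without V118M replicate 2.

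In the BAF complex, the core subunit Smarcb1 had the largest absolute log2 fold change after Smarcd3. Smarcb1 was at 1132 and 1140 in wild type and at 1304 and 1520 in V118M (means 1136 ± 5.66 and 1412 ± 153, SD, n = 2 each). Both V118M libraries were above both wild-type libraries, by a log2 fold change of 0.31 (standard error 0.15, limma adjusted p = 0.951). Leaving out V118M replicate 2 gave 0.20, and leaving out V118M replicate 1 gave 0.42. Smarcd1 was at 392 and 368 against 450 and 416, also without overlap (log2 fold change 0.19).

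The ATPase Smarca4 (BRG1), the form used by embryonic stem cells, was at 5237 and 5082 against 6159 and 4374. The alternative ATPase Smarca2 (BRM), typical of differentiated cells, was at 1836 and 2044 against 1829 and 1890. Smarca4 had V118M libraries on either side of wild type, and Smarca2 stayed close to the wild-type values in both. The core subunits Smarcc1 (BAF155) and Smarcc2 (BAF170), which embryonic stem cells and differentiated cells use in different proportion, were at 2420 and 2167 against 3002 and 2092, and at 1605 and 1444 against 1658 and 1081. The DNA-binding subunits Arid1a and Arid1b were at 2906 and 2502 against 2992 and 2234, and at 1730 and 1507 against 1869 and 1072. These 4 genes were highest in V118M replicate 1 and lowest in V118M replicate 2. By mean, 5 of 9 BAF members were higher in V118M, where 50.0% of all genes were. The count was 8 of 9 without V118M replicate 2 and 3 of 9 without V118M replicate 1. The groups did not overlap in 3 of the 9 (33.3%, against 28.0% of all genes), all higher (against 13.2%).

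The 2 V118M libraries thus differed from each other over much of the set. In V118M replicate 1, 31 of 48 members (64.6%) were above both wild-type values and 7 were below, against 28.1% and 32.5% of all genes tested. In V118M replicate 2, 20 members were above and 24 (50.0%) were below, against 42.5% and 37.5% of all genes. In 16 members (33.3%, against 10.7% of all genes) V118M replicate 1 was above and V118M replicate 2 below.

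The split varied with transcript length. The table assigns several members a short transcript (364 bases for Smarcc1, 428 for Jarid2), so the longest protein-coding transcript of each gene in GENCODE M21 was used. Of the 11 members longer than 6000 bases, 10 were above wild type in V118M replicate 1 and 10 were below it in V118M replicate 2. Kdm5a was the exception in both. Among the 1808 genes of that length whose log2 values averaged 5 or more, 44.0% were above in V118M replicate 1 and 78.9% below in V118M replicate 2. Of the 28 members longer than 3000 and up to 6000 bases, 17 (60.7%) were above wild type in V118M replicate 1. In V118M replicate 2, 13 of them (46.4%) were below. Among 4981 such genes in the table these shares were 34.0% and 56.9%. Of the 9 members up to 3000 bases, 7 were above wild type in V118M replicate 2, as were 67.9% of 5324 such genes in the table. In V118M replicate 1, 4 of the 9 (44.4%) were above, against 24.5%. Across the 48 members, the deviation of V118M replicate 2 from the wild-type mean had a Spearman's rho of -0.55 with length, and that of V118M replicate 1 a rho of 0.14. Across 12113 genes of the table these were -0.57 and 0.20. The points share a library and its normalization, so these values only describe it.

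**Figure D2:**
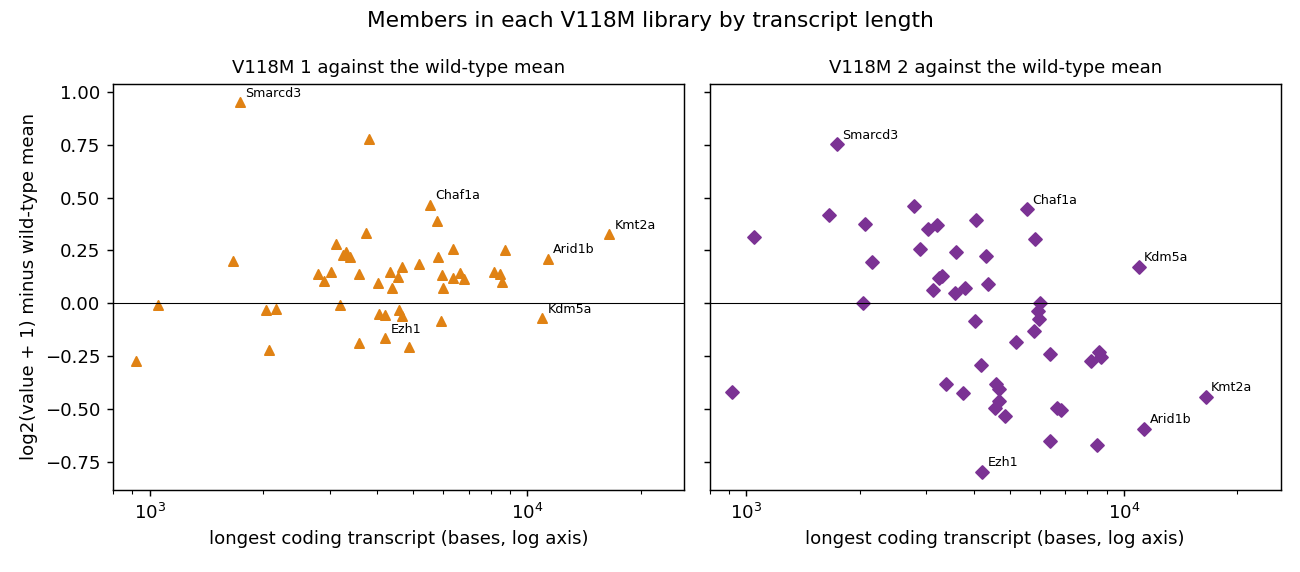
Each point is 1 of the 48 members, by the length of its longest coding transcript (x axis, log scale, bases) and its log2(value + 1) minus the wild-type mean (y axis), in V118M replicate 1 (left) and V118M replicate 2 (right). Long transcripts lie mostly above 0 on the left and below 0 on the right, while Chaf1a is at 0.47 and 0.45 and Smarcd3 at 0.95 and 0.75.

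With a trend on the longest coding length and GC content removed from each library, a step chosen after the data were seen, the median of the 48 members was 0.12 and that of all genes 0. The log2 fold change of Chaf1a was then 0.61, of Smarcd3 0.77, of Cbx6 0.43, of Ezh2 0.24 and of Smarcb1 0.21. Ezh1 was at -0.40, Pcgf1 at -0.54 and Kdm3a at -0.31. Kmt2a changed sign, from -0.06 to 0.17, and Kmt2b was at -0.05. The planned trend, on the length of the table's transcript and GC content, gave a smaller member median of 0.075, beside -0.002 for all genes. Ezh2 was then at 0.15 and Pcgf1 at -0.38, with Chaf1a at 0.60 and Smarcd3 at 0.95. No member passed an adjusted p of 0.05 in these or any other fits (limma).

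Ratios between related genes were then compared within each library, over 12 pairs. A ratio cancels what acts on both genes alike, although not a length effect where their lengths differ. Whether the values are per length is not known, so only how a ratio differs between libraries can be read. The ratio of Ezh2 to Ezh1 was 0.73 and 0.71 for wild type, beside 0.89 and 1.73 for V118M, a difference of 0.78 on the log2 scale. The longest coding transcripts of these genes have 2787 and 4207 bases, and most of the difference lay in V118M replicate 2. The ratio of Smarcc1 to Smarcc2, of 5773 and 4562 bases, was 1.51 and 1.50 for wild type, beside 1.81 and 1.93 for V118M. This difference of 0.32 on the log2 scale was alike in both V118M libraries and large beside the spread within either group. The ratio of Kmt2a to Kmt2b was 1.74 and 1.66 against 1.94 and 1.99. The ratio of Smarcd1 to Smarcd3 was 9.14 and 4.99 against 4.14 and 4.39, with a wide gap between the wild-type libraries.

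The groups did not overlap in 5 of the 12 pairs, the fifth being Ehmt1 to Ehmt2, whose difference was 0.02. In each of these the exact two-sided permutation test gave p = 0.333, the smallest that 2 libraries against 2 can give, and 0.8 after adjustment over the pairs. The ratio of Smarca4 to Smarca2 did not separate the groups, at 2.85 and 2.49 against 3.37 and 2.31. That of Arid1a to Arid1b was 1.68 and 1.66 against 1.60 and 2.08.

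**Figure D3:**
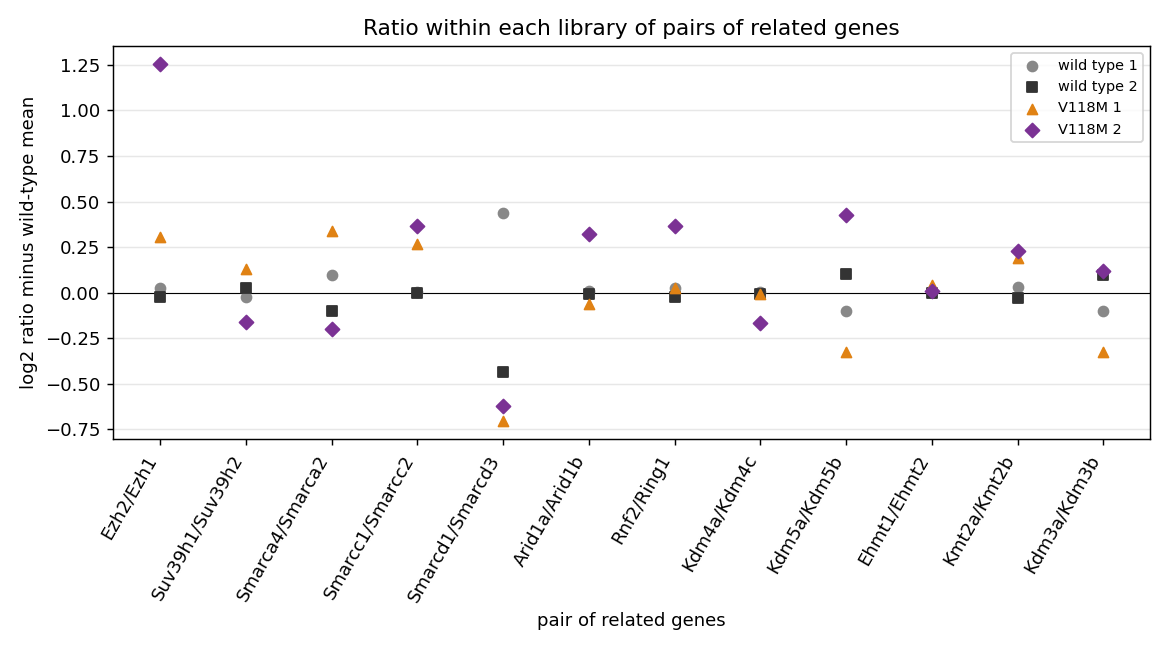
Each column is 1 pair of related genes and each point 1 library, as the log2 ratio of the first gene to the second minus the mean of the wild-type libraries (y axis). For Smarcc1/Smarcc2 and Kmt2a/Kmt2b both V118M points lie together above 0, for Ezh2/Ezh1 they lie far apart above 0, and for 7 of the 12 pairs they overlap the wild-type points.

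Other genes of the same complexes were taken from a list of 83, of which 82 were found and tested. None passed an adjusted p or an unadjusted p of 0.05. By mean 35 were higher and 47 lower in V118M, and their median log2 fold change was -0.04. That median changed sign with the library left out, to 0.06 (V118M replicate 2) or -0.15 (V118M replicate 1). In 17 (20.7%, against 28.0% of all genes) the groups did not overlap, with 9 higher and 8 lower. Of these, 2 had an absolute log2 fold change of at least 0.5, both BAF genes. Ss18l1 was at 35 and 42 against 22 and 30 (log2 fold change -0.56). Bicral was at 468 and 460 against 456 and 188 (log2 fold change -0.66), low in V118M replicate 2 only. In other lists the gene with the largest fold change was Phf1 for PRC2, at 169 and 136 against 104 and 124. It was Mphosph8 for H3K9, at 756 and 834 against 758 and 1534, and Ash1l for H3K4, at 3108 and 2738 against 3054 and 1480. The demethylase Kdm4d was listed at 0, 12, 4 and 12, too low to read. Phf1, an accessory PRC2 subunit, was below wild type in both V118M libraries. Mphosph8, a reader of H3K9 methylation, and Ash1l stood out only in V118M replicate 2.

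Markers of proliferation differed with the group by mean. All 22 had a higher mean in V118M, by a median log2 fold change of 0.37, and their sums were 17717 and 14527 for wild type, beside 21039 and 20503 for V118M, with none at 0. Birc5, with the largest fold change of the 22, was at 186 and 192 against 331 and 472. Mki67 was split, at 2779 and 2010 against 3812 and 1778. In 19 of the 22 (86.4%, against 28.0% of all genes) the groups did not overlap, all higher (against 13.2%). At an unadjusted p under 0.05 (limma) 4 were found (18.2%, against 4.01% of all genes), and 0 of the 22 passed an adjusted p of 0.05. Their part in the values of Chaf1a, Ezh2, Ezh1 and Suv39h1 was not tested. Fibroblast markers were present in every library (12 of 12). By mean 8 of them were higher and 4 lower in V118M. In 3 (25.0%, against 28.0% of all genes) the groups did not overlap, all higher (against 13.2%). Col3a1 was at the highest value of the table in 3 libraries and at 29496 in V118M replicate 2. Epithelial markers summed to between 18428 and 19877, mostly from Krt8, Krt19 and Cdh1. Of the 8, 7 had a lower mean in V118M, where 48.9% of all genes did. In 4 of them (50.0%, against 28.0% of all genes) the groups did not overlap, all lower (against 14.8%). Leukocyte markers were low and summed to 619 and 387 against 246 and 297. Of the 8, 7 had a lower mean in V118M, where 48.9% of all genes did. The groups did not overlap in 1 (12.5%, against 28.0% of all genes), Ptprc, at 165 and 58 against 30 and 0. In V118M replicate 2 only 2 of the 8 were below both wild-type values and 1 was above, Cd14, at 30 and 14 against 10 and 36. Pluripotency markers summed to 110 and 170 against 248 and 223, most of it from Tdgf1 at 83 and 126 against 188 and 149. The other 9 were at 38 or less in every library, with Tcl1 at 0 throughout and Nanog at 1, 8, 6 and 6. Utf1 was at 10 and 17 against 33 and 38. Of the 6 pluripotency markers that passed the filter, 5 had a higher mean in V118M. In 2 (33.3%, against 28.0% of all genes) the groups did not overlap, Tdgf1 and Utf1, both higher (against 13.2%).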

How the data were processed

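RNA-seq was analysed from 2 wild-type and 2 V118M libraries. The authors deposited 1 table of whole-number scores per gene. Per the submitters' processing notes, the build was mm10 and the tools included Bowtie2, RSEM, DESeq2 and FastQC, with no version or role. The normalization was not given in the sources used here. Sorted columns of the table held equal values at 76.7% of ranks and column totals differed by at most 0.0321%, so the scores are not counts, depth is unknown, and differences that affect most genes cannot be read. Shared top values compress the highest genes.

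After a log2(value + 1) transform, the 19547 genes at 1 or more in 2 or more libraries were fitted with limma 3.58.1 in R 4.3.3 (group as the only term, trend and robust options), two-sided, with Benjamini-Hochberg adjustment. The script was tested on simulated data. Coordinates and lengths came from GENCODE M21 (GRCm38), where 22304 transcripts and all 48 members were found. The members, gene lists and motifs were chosen with earlier results of these data known. Every member is named. Of the other pathway genes, those named have groups that did not overlap and an absolute log2 fold change of at least 0.5, or else are the largest of their list, of which 1 is not reported here. Alternatives covered pseudocounts of 0.1 and 5, 2 other filters, a replicate block, each library left out, array weights, and removal of a length and GC trend.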

Additional observations from a re-analysis of the deposited data

How the results depend on the processing

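No member passed an adjusted p of 0.05 in any fit. The sign of the log2 fold change was kept by 20 members in every setting, among them Chaf1a, Smarcd3, Smarcb1, Cbx6, Ezh1, Ezh2, Kdm1a and Kdm3a, and 16 changed sign only when a library was left out. Same-numbered libraries deviated together (correlation 0.303 over 12661 genes), but 2 pairs cannot show that the numbers pair the samples. With the replicate block 3 of all genes passed (Oas2, Ifi27l2a and C4b, none a member, named after their values were seen), and 22 with the block and the length and GC trend removed, where 0 passed without it, and the block changed no member's call at an adjusted p. The cause was not tested.

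Members at an unadjusted p under 0.05 numbered 1 with a pseudocount of 0.1 or array weights, 5 without a filter, 4 with the trend removed and the block, and 0 to 12 when a library was left out. Over all genes these shares were 3.69% and 3.01%, 6.44%, 7.29%, and 1.16% to 26.8%, and those of the members 2.08%, 10.4%, 8.33%, and 0% to 25.0%. Chaf1a was among the members counted in every setting except those that left out a wild-type library. Members whose groups did not overlap numbered 23 to 44 (47.9% to 91.7%, against 45.2% to 81.6% of all genes) when a library was left out, and pairs of related genes 6 to 12, because fewer libraries have to separate. With the trend removed, by either length and with the block, a higher mean was found in 5 demethylases, 2 H3K4 and H3K79 genes and 8 BAF genes. When a library was left out these counts were 2 to 5, 1 to 4 and 3 to 8. Spearman's correlation of V118M replicate 2 with length was -0.55 for the longest coding transcript and -0.48 for the table's transcript.

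With the trend on the table's transcript length removed, with or without the replicate block, signs changed to -0.024 for Jarid2, 0.035 for Phf19, 0.0056 for Cbx8, 0.096 for Kdm2a, 0.0125 for Kdm6b, -0.013 for Sumo2, 0.17 for Kmt2a, 0.074 for Smarca2, 0.14 for Arid1a and 0.0026 for Arid1b. With the longest coding length they changed to -0.036 for Eed, 0.031 for Phf19, 0.0021 for Cbx8, -0.026 for Pcgf6, 0.0896 for Kdm2a, 0.014 for Kdm6b, -0.10 for Sumo2, 0.17 for Kmt2a, 0.075 for Smarca2, 0.15 for Arid1a and 0.0069 for Arid1b.

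When 1 library was left out, the log2 fold change of members that changed sign had these ranges. Among PRC2 genes it was -0.22 to 0.37 for Eed, -0.0497 to 0.39 for Mtf2 and -0.42 to 0.33 for Phf19. Among PRC1 genes it was -0.0061 to 0.37 for Rnf2, -0.22 to 0.19 for Ring1, -0.42 to 0.25 for Cbx7, -0.29 to 0.15 for Cbx8, -0.025 to 0.20 for Pcgf6 and -0.18 to 0.19 for Kdm2b. Among demethylases it was -0.23 to 0.10 for Kdm2a, -0.65 to 0.12 for Kdm3b, -0.0702 to 0.17 for Kdm5a, -0.25 to 0.25 for Kdm5b and -0.49 to 0.15 for Kdm6b. Among H3K9 genes it was -0.40 to 0.17 for Setdb1, -0.075 to 0.14 for Ehmt1, -0.084 to 0.097 for Ehmt2 and -0.0079 to 0.31 for Sumo2. Among H3K4 and H3K79 genes it was -0.50 to 0.11 for Dot1l, -0.44 to 0.33 for Kmt2a and -0.67 to 0.14 for Kmt2b. Among BAF genes it was -0.14 to 0.018 for Smarca2, -0.24 to 0.26 for Smarca4, -0.13 to 0.39 for Smarcc1, -0.49 to 0.12 for Smarcc2, -0.27 to 0.15 for Arid1a and -0.59 to 0.21 for Arid1b.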
